A study of Mus musculus with 9 samples.

Results

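The genes described here are 8 transcription factors of the primitive streak and the caudal embryo, T, Cdx1, Cdx2, Gsc, Eomes, Mixl1, Evx1 and Mesp1. They were chosen by name, as 8 of the 38293 genes of a table of RNA-seq read counts, and all 8 were found in it by their Ensembl identifiers. The table covers 1 mouse embryonic stem cell line, E14 (strain 129/Ola), in 3 culture states with 3 biological replicates each. mESC-2i, labelled naive, were kept in serum-free N2B27 medium with LIF (leukaemia inhibitory factor), the MEK inhibitor PD0325901 and the GSK3 inhibitor CHIR99021. The sample titles of this state alone also hold the letters LT, which the titles do not explain. mESC-ser were kept on gelatin in foetal bovine serum with LIF and no inhibitor. Epiblast-like cells, EpiLC, were derived from the naive cells on fibronectin in N2B27 with activin A, bFGF and KSR (a serum replacement), with neither inhibitor named. A state therefore differs from the others in several medium components at once, and an effect of any single component cannot be told apart from the rest. All libraries come from the same line, so the spread between replicates is that of cultures and not of animals.

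The primitive streak is the place where epiblast cells of the gastrulating embryo leave the epithelium to form mesoderm and definitive endoderm. Wnt and Nodal signals induce it, and the DNA-binding proteins described here act within it or in the cells that leave it. T (Brachyury) is the classical marker of the streak and of nascent mesoderm, and Cdx1 and Cdx2 give cells posterior identity as the body axis grows. In pluripotent cell cultures transcripts of such factors are read as a sign of lineage priming or of differentiating cells. In bulk RNA a small number of cells with a high level and many cells with a low one cannot be told apart, nor can fewer cells of a type and less RNA per cell.

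The start sites of 6 of the 8 genes could be placed in RefSeq promoter windows of build GRCm38.p6, each covering 250 bases before and 50 bases after the start. Cdx1 and Mixl1 had no window. The windows were searched on both strands for 7 short motifs, a TATA box and motifs named after factors of this pathway. At least 1 match was found in 4 of the 6. The share of all windows with a match to any of the 7 was not counted, and shares per motif are given below. The 2 longer stretches are those of T and Cdx2, genes whose transcripts changed in all 3 comparisons. The shorter ones hold the matches of Mesp1 and Evx1. Capitals mark the match.
T (chr17:8434173-8434422, plus strand): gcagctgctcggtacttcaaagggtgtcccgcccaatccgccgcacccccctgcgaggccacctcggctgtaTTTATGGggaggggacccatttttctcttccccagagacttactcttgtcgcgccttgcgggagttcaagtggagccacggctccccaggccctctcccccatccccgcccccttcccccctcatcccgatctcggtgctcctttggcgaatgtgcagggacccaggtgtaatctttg
Cdx2 (chr5:147307271-147307499, minus strand): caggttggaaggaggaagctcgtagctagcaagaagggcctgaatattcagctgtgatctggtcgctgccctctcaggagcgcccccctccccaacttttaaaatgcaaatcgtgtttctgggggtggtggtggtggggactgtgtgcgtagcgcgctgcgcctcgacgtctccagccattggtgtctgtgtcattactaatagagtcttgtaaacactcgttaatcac
Mesp1 (chr7:79793606-79793629, minus strand): cgagccggCTTTGATatgctgatg
Mesp1 (chr7:79793570-79793593, minus strand): ggcccgctTCACACCtagggctca
Evx1 (chr6:52313260-52313283, plus strand): caaaacaaCAATAAAataaaattt
The T promoter held the CDX motif TTTATGG from position -178 to -172 of the start, a motif found in 2.75% of the 32851 windows of all genes. The Evx1 stretch held the other CDX motif, TTTATTG, on the antisense strand between -230 and -224, where 4.60% of all windows have it. In Mesp1 the TCF/LEF motif CTTTGAT (3.73% of windows) lay between -31 and -25, and the T-box motif TCACACC (3.98%) between 6 and 12. GENCODE starts Mesp1 further upstream, so both of its stretches lie in the transcribed part of that annotation. The Gsc window held a TATA box motif, TATAAA (13.6% of windows), between -164 and -159. The windows of Cdx2 and Eomes held none of the 7 motifs, which also included TGTGGAT for FOXH1 (3.38%) and TAATCC for bicoid-type factors (7.06%). The motifs do not overlap one another in these windows, and a match describes letters, not binding.

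T, Cdx1, Cdx2 and Gsc were abundant in mESC-2i and low in the other states. Eomes was the most even of the genes with more than a few reads, Mixl1 was highest in EpiLC, Evx1 was low in every state, and Mesp1 never rose above 3 counts in a library. Of the 8 genes, 5 had their highest mean in mESC-2i, 2 in mESC-ser (Evx1 and Mesp1) and 1 in EpiLC. For Evx1 and Mesp1 the mESC-ser libraries overlapped with those of the next state. CPM is the count relative to library size scaled by TMM, and RPKM is CPM per kilobase of exon. Compared per length, in RPKM, T led in mESC-2i with 36.9 ± 4.85 (SD, n = 3), followed by Cdx1 with 27.5 ± 5.78, Gsc with 7.37 ± 1.90, Cdx2 with 6.84 ± 0.659 and Eomes with 3.76 ± 0.246. The remaining 3 were at 0.400 RPKM (Mixl1) or lower there. In mESC-ser the order began with Eomes (2.08 RPKM) and T (1.89 RPKM), and in EpiLC with Eomes (2.36 RPKM) and Mixl1 (0.832 RPKM).

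**Figure D1:**
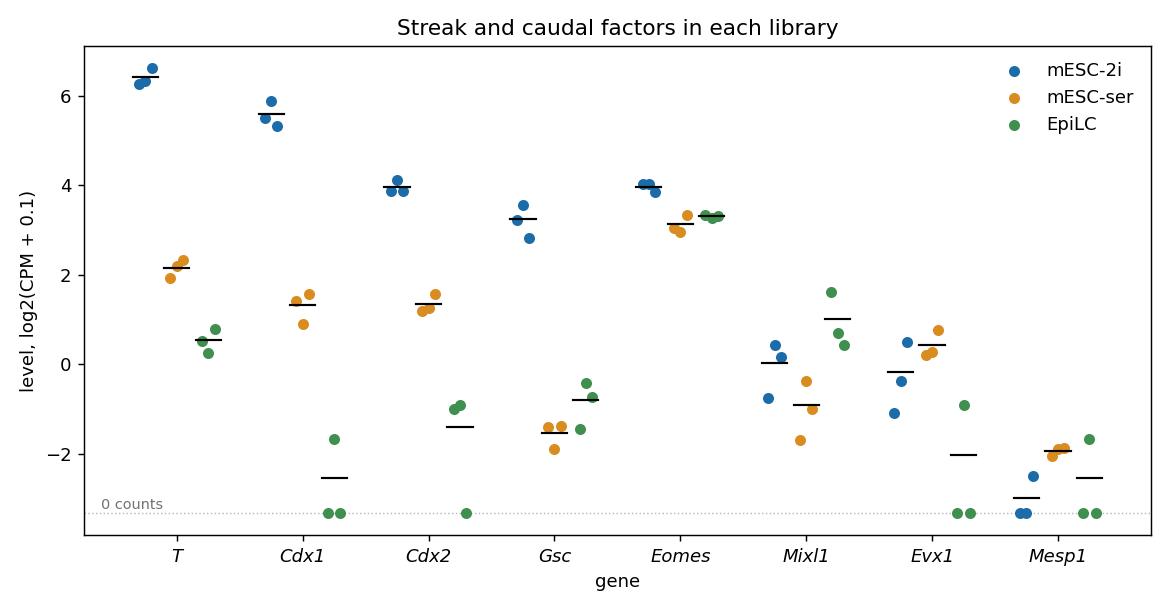
Level of each factor in each of the 9 libraries, as log2 of TMM-scaled CPM plus 0.1, with points for libraries coloured by state and a black bar at the mean CPM of the state. The 4 genes on the left sit high in mESC-2i, Eomes stays within a narrow range, and the dotted line marks libraries with 0 counts.

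Differences between states were tested with the quasi-likelihood F-test of edgeR over all genes that passed a filter on low counts, and a call needed an adjusted p (Benjamini-Hochberg) under 0.05 together with a log2 fold change beyond 0.5 in either direction. The states differ widely, so a call is common. Between mESC-ser and mESC-2i 56.2% of the 15728 tested genes were called, 25.9% as higher and 30.3% as lower in mESC-ser. Of the 8 factors, 5 were called lower (T, Cdx1, Cdx2, Gsc and Eomes), Evx1 was tested and not called, and Mixl1 and Mesp1 had too few counts to be tested. Between EpiLC and mESC-2i 69.8% of 15378 genes were called, 32.0% as higher and 37.8% as lower in EpiLC. The same 5 factors were called lower in EpiLC, Mixl1 was tested and not called, and Evx1 and Mesp1 were not tested. Between EpiLC and mESC-ser 73.3% of 15345 genes were called, 35.5% as higher and 37.8% as lower in EpiLC. There T, Cdx1, Cdx2 and Evx1 were called lower, Mixl1 was called higher, Eomes was not called, and Gsc and Mesp1 were not tested. The comparisons share libraries pairwise and so are not independent of one another.

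**Figure D2:**
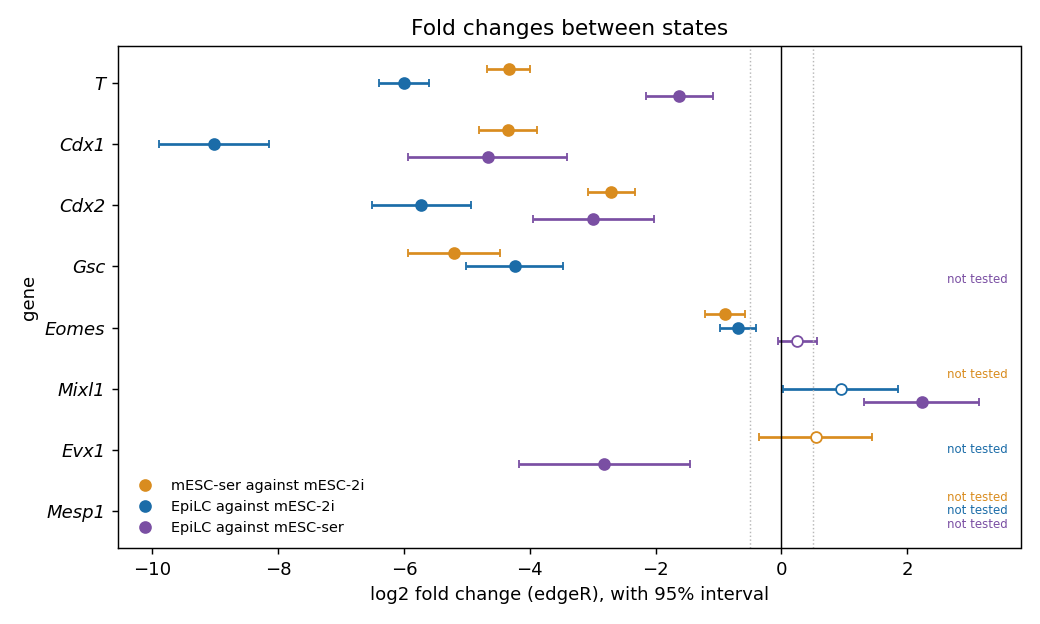
Log2 fold changes of the 8 factors in the 3 comparisons of states, as fitted by edgeR, with 95% intervals as bars. Filled points were called, open points were not, and the dotted lines mark the fold threshold of 0.5 in either direction. T, Cdx1, Cdx2 and Gsc lie far to the left wherever mESC-2i is the reference, while the largest value on the right is that of Mixl1 in EpiLC against mESC-ser, 2.23.

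T (ENSMUSG00000062327, GRCm38 chromosome 17, 8434423 to 8442496, plus strand), the T-box factor needed for posterior mesoderm, had 630, 969 and 1261 counts in mESC-2i replicates 1 to 3. It had 53, 53 and 86 counts in mESC-ser, against 10, 10 and 13 in EpiLC. Scaled to library size, the mESC-2i replicates were at 77.4, 80.8 and 98.3 CPM, those of mESC-ser at 3.71, 4.50 and 4.94 CPM, and those of EpiLC at 1.34, 1.08 and 1.63 CPM. The 3 states did not overlap, and every step from mESC-2i to mESC-ser to EpiLC went down. The mean of 85.5 ± 11.2 CPM (SD, n = 3) in mESC-2i stood against 4.38 ± 0.622 in mESC-ser (log2 fold change -4.34, SE 0.16, edgeR adjusted p = 1.90e-08). EpiLC held 1.35 ± 0.274 CPM, with log2 fold changes of -6.00 (SE 0.18, edgeR adjusted p = 1.70e-09) against mESC-2i and -1.62 (SE 0.25, edgeR adjusted p = 1.31e-05) against mESC-ser.

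The caudal homeobox genes followed the same order of states. Cdx1 (ENSMUSG00000024619, chromosome 18, 61018862 to 61036199, minus strand), which patterns the axial skeleton and responds to Wnt signals in the embryo, had 369, 713 and 511 counts in mESC-2i. It had 37, 21 and 50 counts in mESC-ser, against 0, 2 and 0 in EpiLC, again without overlap between states. The mESC-ser libraries held 2.41 ± 0.565 CPM against 48.2 ± 10.1 CPM in mESC-2i (log2 fold change -4.34, SE 0.21, edgeR adjusted p = 7.89e-08). EpiLC were at the counting floor with 2 counts in all. By these sums of counts the level in mESC-2i was 595 times that in EpiLC (95% exact counting interval 164 to 4918), and that in mESC-ser 30.6 times (8.26 to 256), intervals that cover counting error only. Both differences passed the edgeR test (adjusted p = 1.65e-08 and 1.56e-06), where the size of the fitted change depends on the prior count.

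Cdx2 (ENSMUSG00000029646, chromosome 5, 147300805 to 147307270, minus strand), a factor of the posterior axis that also specifies trophectoderm, had 119, 206 and 187 counts in mESC-2i. It had 31, 27 and 50 counts in mESC-ser, against 3, 4 and 0 in EpiLC. The states did not overlap. Its mean level fell from 15.5 ± 1.49 CPM in mESC-2i to 2.44 ± 0.375 in mESC-ser (log2 fold change -2.70, SE 0.17, edgeR adjusted p = 4.37e-07), a smaller change than those of T and Cdx1 in the same comparison, although the differences between genes were not tested. In EpiLC it was 0.279 ± 0.242 CPM, with log2 fold changes of -5.72 (SE 0.36, edgeR adjusted p = 1.74e-07) against mESC-2i and -2.99 (SE 0.45, edgeR adjusted p = 1.20e-05) against mESC-ser. The third gene of the family, Cdx4, was near the floor, with 3, 4 and 3 counts in mESC-2i, 9, 10 and 8 in mESC-ser and 0 in each EpiLC library, and was not tested. A count of 0 allows up to 0.403 CPM in the shallowest of those libraries. Its mean was higher in mESC-ser (0.646 ± 0.195 CPM) than in mESC-2i (0.312 ± 0.0698 CPM). By these means alone, untested and near the floor, its order of states differed from that of Cdx1 and Cdx2.

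Gsc (ENSMUSG00000021095, chromosome 12, 104471209 to 104473330, minus strand), the homeobox gene goosecoid of the anterior streak and organiser, had 76, 141 and 89 counts in mESC-2i. It had 4, 2 and 5 counts in mESC-ser, against 2, 6 and 4 in EpiLC. All mESC-2i libraries stood above all others, while those of mESC-ser and EpiLC overlapped. The means were 9.34 ± 2.41, 0.246 ± 0.0658 and 0.474 ± 0.193 CPM. The log2 fold change was -5.21 in mESC-ser (SE 0.33, edgeR adjusted p = 4.69e-07) and -4.24 in EpiLC (SE 0.35, edgeR adjusted p = 1.19e-06), both against mESC-2i. With so few reads the difference between mESC-ser and EpiLC was not detectable at this depth.

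Eomes (ENSMUSG00000032446, chromosome 9, 118478212 to 118486132, plus strand), a T-box factor required for definitive endoderm and cardiac mesoderm and for trophoblast, behaved differently from T. It had 132, 194 and 185 counts in mESC-2i, 117, 91 and 175 in mESC-ser, against 75, 88 and 78 in EpiLC. The mESC-2i libraries, at 15.6 ± 1.02 CPM, lay above all others, and those of mESC-ser (8.65 ± 1.23 CPM) and EpiLC (9.80 ± 0.260 CPM) overlapped. Against mESC-2i its log2 fold change in mESC-ser was -0.90 (SE 0.15, edgeR adjusted p = 0.000332) and in EpiLC -0.69 (SE 0.13, edgeR adjusted p = 0.00062). Corrected for gene length and GC content, the EpiLC value was -0.37 and under the fold threshold, but the median of all genes moved from -0.11 to 0.18 with that correction, and relative to the median Eomes stood at -0.58 before it and -0.55 after it. EpiLC and mESC-ser differed by 0.25 (95% interval -0.054 to 0.56, edgeR adjusted p = 0.114), a sign that turned to -0.09 when libraries were scaled by total counts. Eomes shares 118 bp of exon with Gm33460 on the opposite strand, and the library kit does not mark strand.

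Mixl1 (ENSMUSG00000026497, chromosome 1, 180693043 to 180697034, minus strand), a paired-type homeobox gene of the streak that acts downstream of Nodal, was the only one of the 8 with its highest level in EpiLC. It had 4, 15 and 13 counts in mESC-2i, 3, 8 and 7 in mESC-ser, against 22, 14 and 10 in EpiLC. Scaled, the EpiLC libraries (2.95, 1.52 and 1.26 CPM) lay above those of mESC-2i (0.491, 1.25 and 1.01 CPM), with the nearest pair almost equal, and the mESC-2i libraries overlapped with those of mESC-ser (0.210, 0.679 and 0.402 CPM). EpiLC exceeded mESC-ser by 2.23 on the log2 scale (SE 0.43, edgeR adjusted p = 0.000153). Against mESC-2i the value was 0.94 (SE 0.41, 95% interval 0.027 to 1.86, edgeR adjusted p = 0.0561), which missed the threshold and passed it in 6 of 18 other settings, with values of 0.54 to 1.24 over the 18.

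Evx1 (ENSMUSG00000005503, chromosome 6, 52313498 to 52318378, plus strand), an even-skipped homeobox gene of the posterior streak, had 3, 8 and 17 counts in mESC-2i, 15, 13 and 28 in mESC-ser, against 0, 4 and 0 in EpiLC. Ordered by mean, mESC-ser (1.25 ± 0.308 CPM) came before mESC-2i (0.787 ± 0.490 CPM) and EpiLC (0.145 ± 0.251 CPM), and neighbours in that order overlapped. The difference between mESC-ser and mESC-2i was 0.55 on the log2 scale (SE 0.41, 95% interval -0.35 to 1.45, edgeR adjusted p = 0.256). Without mESC-2i replicate 3, the library with 17 counts, it was 1.17 (edgeR adjusted p = 0.0258) and would be called. That library stood apart from the other mESC-2i replicates beyond this gene, as given below. The log2 fold change of EpiLC against mESC-ser was -2.82 (SE 0.64, edgeR adjusted p = 0.000669). The antisense transcript Evx1os, which overlaps Evx1 by 73 bp, had at most 4 counts in any library, and the paralogue Evx2 had 1 count in all 9. Mesp1 (ENSMUSG00000030544, chromosome 7, 79792241 to 79793788, minus strand), a bHLH factor of the earliest cardiac mesoderm, had 0, 0 and 1 counts in mESC-2i, 2, 2 and 3 in mESC-ser, against 0, 2 and 0 in EpiLC. All groups were at the counting floor of 3 counts, so no fold is given. Its neighbour Mesp2, a bHLH factor of the segmenting mesoderm, was measurable, with 5, 11 and 25 counts in mESC-2i, 36, 42 and 60 in mESC-ser, against 10, 11 and 8 in EpiLC. Mesp2 was higher in mESC-ser than in mESC-2i by 1.31 (SE 0.35, edgeR adjusted p = 0.00675) and lower in EpiLC than in mESC-ser, at -1.34 (SE 0.27, edgeR adjusted p = 0.000234).

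**Figure D3:**
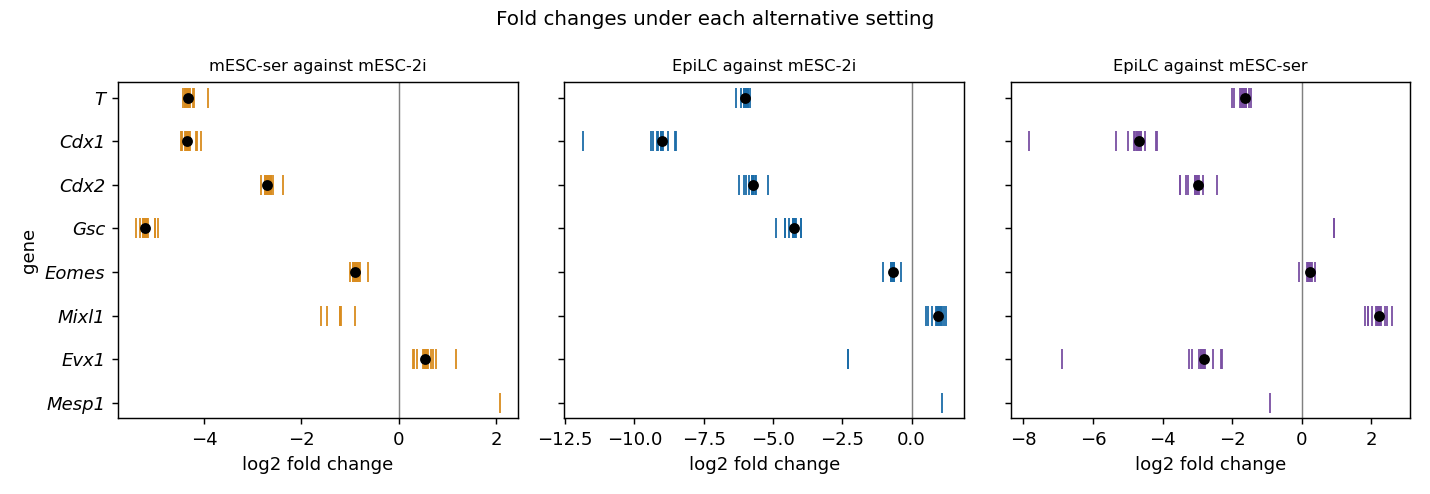
Log2 fold changes of the 8 factors under each alternative setting of the analysis (coloured ticks), with the value as reported as a black dot. Genes that were not tested as reported have ticks and no dot, and the ticks of T, Cdx1, Cdx2 and Gsc against mESC-2i all lie left of 0.

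The other genes that mark the streak and the mesendoderm did not move together. Of 32 listed partners, 25 were tested between mESC-ser and mESC-2i, with 9 called higher and 8 lower (median log2 fold change 0.17, against -0.04 over all tested genes). Between EpiLC and mESC-2i 7 were called higher and 10 lower of 22 tested (median -0.44, against -0.11), and between EpiLC and mESC-ser 7 higher and 12 lower of 21 (median -1.23, against -0.07). Nkx1-2, a homeobox gene of the caudal epiblast, shared the pattern of T against mESC-2i. It had 307, 426 and 452 counts in mESC-2i, 9, 7 and 9 in mESC-ser, against 13, 18 and 10 in EpiLC. Its log2 fold changes were -6.01 in mESC-ser (SE 0.17, edgeR adjusted p = 8.10e-09) and -4.45 in EpiLC (SE 0.17, edgeR adjusted p = 7.01e-09), and Gm16764 overlaps it on the opposite strand. Zfp703 (93, 155 and 167 counts in mESC-2i, 70, 39 and 90 in mESC-ser, against 5, 4 and 2 in EpiLC) was lower in EpiLC by -4.78 (SE 0.26, edgeR adjusted p = 7.51e-08).

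Among the secreted signals of that list, Fgf8, Wnt3 and Wnt8a had higher levels in EpiLC than in mESC-2i, and some others did not. Wnt8a was at 2.58 to 3.09 CPM in mESC-2i, 2.99 to 3.99 in mESC-ser and 7.70 to 8.59 in EpiLC. Fgf8, a growth factor of the streak that moves nascent mesoderm away from it, had 24, 48 and 49 counts in mESC-2i, 19, 13 and 24 in mESC-ser, against 217, 291 and 222 in EpiLC. It was higher in EpiLC by 3.00 against mESC-2i (SE 0.15, edgeR adjusted p = 3.91e-08) and by 4.60 against mESC-ser (SE 0.15, edgeR adjusted p = 1.45e-13), and lower in mESC-ser than in mESC-2i (-1.55). Wnt3, the ligand needed for streak formation, rose from 3.07 ± 0.445 CPM in mESC-2i to 5.11 ± 0.852 in mESC-ser and 6.75 ± 0.469 in EpiLC, with log2 fold changes of 0.68 and 1.11 against mESC-2i that were both called. Its difference between EpiLC and mESC-ser, 0.47, was under the fold threshold. Rspo3, a secreted enhancer of Wnt signalling, had 8, 21 and 21 counts in mESC-2i, 3, 4 and 3 in mESC-ser and at most 3 in EpiLC, and was called lower than in mESC-2i in both. Fgf17 was at 52, 75 and 95 counts in mESC-2i, 190, 162 and 169 in mESC-ser, against 31, 53 and 36 in EpiLC, where its value against mESC-2i was -0.48 (edgeR adjusted p = 0.0364) and under the fold threshold. Wnt5a (7, 9 and 14 counts in mESC-2i) and Wnt3a (5, 5 and 12) were not tested between EpiLC and mESC-2i, with 2, 5 and 4 counts of Wnt5a and 0 of Wnt3a in the EpiLC libraries. In mESC-ser, its highest state, Wnt5a had 59, 76 and 86 counts, and Wnt3a had 6, 15 and 16 there. Wnt8a, Rspo3, Fgf17, Wnt5a and Wnt3a were named after their values were seen. Tbx6, a T-box gene of paraxial mesoderm, was higher in EpiLC (2.60 ± 0.216 CPM) than in mESC-2i (1.03 ± 0.674 CPM, log2 fold change 1.22, SE 0.38, edgeR adjusted p = 0.0137) and mESC-ser (0.807 ± 0.0394 CPM, 1.76, SE 0.27, edgeR adjusted p = 1.07e-05).

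Other partners differed in further ways. Hand1, a bHLH gene of lateral mesoderm and trophoblast, had 68, 46 and 86 counts in mESC-ser and at most 1 in any other library. Kdr, the receptor VEGFR2 of mesodermal blood and vessel progenitors, had 61, 64 and 94 counts in mESC-2i, 123, 92 and 169 in mESC-ser and 1 count in all in EpiLC. Dusp4, a phosphatase induced by ERK signalling, had 28, 45 and 35 counts in mESC-2i, 667, 540 and 905 in mESC-ser, against 480, 583 and 508 in EpiLC, and was higher in mESC-ser by 3.81 (SE 0.15, edgeR adjusted p = 3.22e-08). Foxa2, a forkhead factor of the anterior streak and endoderm, was low throughout (1.90 ± 0.308, 0.830 ± 0.194 and 1.45 ± 0.497 CPM in mESC-2i, mESC-ser and EpiLC). It was called lower in mESC-ser than in mESC-2i (-1.28) and higher in EpiLC than in mESC-ser (0.93), and was not called between EpiLC and mESC-2i (-0.40).

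Among the T-box genes other than T and Eomes, 10 of 15 were tested between mESC-ser and mESC-2i, with 2 called higher and 5 lower (median -0.76). Between EpiLC and mESC-2i it was 1 higher and 6 lower of 8 (median -4.07, or -2.52 with the 3 genes at the counting floor set at their bound), and between EpiLC and mESC-ser 1 higher and 4 lower of 6 (median -1.76). Tbx6 was the one called higher in EpiLC in both. Tbx3, a T-box gene of the naive state, fell in every step, with 1795, 2437 and 3078 counts in mESC-2i, 1566, 1258 and 2138 in mESC-ser, against 12, 12 and 10 in EpiLC. Its log2 fold changes were -1.03 in mESC-ser (SE 0.11, edgeR adjusted p = 1.61e-05) and -7.33 in EpiLC (SE 0.15, edgeR adjusted p = 4.15e-10) against mESC-2i, and Tbx3os1 overlaps it on the opposite strand. Tbx15 was at 47, 76 and 76 counts in mESC-2i and at most 23 in the others. Tbx20 was at 128, 110 and 160 counts in mESC-ser and at most 6 in the others, and Mga was higher in mESC-ser than in mESC-2i (1.32) and lower in EpiLC (-1.32 against mESC-2i and -2.59 against mESC-ser).

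The Wnt pathway, which GSK3 inhibition activates, was read from 16 feedback and target genes. Between mESC-ser and mESC-2i 1 was called higher and 10 lower of 15 tested (median -1.36), and between EpiLC and mESC-2i 4 higher and 9 lower of 15 (median -1.75). Between EpiLC and mESC-ser 8 were higher and 5 lower of 13 (median 0.68), or 5 higher where libraries were scaled by total counts. Axin2, the scaffold of the complex that degrades beta-catenin, fell in the same order as T, from 170 ± 22.0 CPM in mESC-2i to 32.9 ± 3.77 in mESC-ser and 7.27 ± 1.16 in EpiLC. The log2 fold changes of Axin2 were -2.42, -4.57 and -2.11 in mESC-ser against mESC-2i, EpiLC against mESC-2i and EpiLC against mESC-ser. Sp5, a zinc finger repressor induced by Wnt, had 1176, 1846 and 1757 counts in mESC-2i, 128, 133 and 201 in mESC-ser, against 1, 3 and 1 in EpiLC, and was called lower in all 3. Lef1, a DNA-binding partner of beta-catenin, moved the opposite way, with log2 fold changes of 1.70, 2.34 and 0.68 that were all called, from 21.4 ± 3.09 CPM in mESC-2i to 110 ± 13.6 in EpiLC. Antisense genes overlap both Axin2 and Lef1. Notum, which removes the lipid of Wnt proteins, followed Axin2 with 105 ± 12.8, 42.7 ± 4.33 and 1.71 ± 0.0723 CPM.

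The Nodal and activin list was mixed, with 14 of its 16 genes tested in each comparison. It had 3 called higher and 4 lower in mESC-ser against mESC-2i (median -0.33), 4 higher and 4 lower in EpiLC against mESC-2i (median -0.10), and 4 higher and 6 lower in EpiLC against mESC-ser (median -0.12). Nodal itself, the ligand that induces Eomes, Mixl1 and Gsc in the embryo, was at 72.7 ± 2.11, 59.7 ± 4.23 and 81.9 ± 2.41 CPM in mESC-2i, mESC-ser and EpiLC. It was called only between EpiLC and mESC-ser (0.54, SE 0.08, edgeR adjusted p = 1.49e-05), and its values were -0.34 in mESC-ser and 0.15 in EpiLC against mESC-2i. Lefty1, a secreted inhibitor induced by Nodal, was higher in EpiLC than in mESC-2i by 1.83 (SE 0.12, edgeR adjusted p = 1.93e-07) and than in mESC-ser by 2.32. Lefty2 was lower in mESC-ser than in mESC-2i (-1.76, SE 0.10, edgeR adjusted p = 1.87e-07) and higher in EpiLC than in mESC-ser (1.61), and was not called between EpiLC and mESC-2i (-0.20, edgeR adjusted p = 0.0622). The state with the highest mean was EpiLC for Nodal, Lefty1 and Mixl1, and mESC-2i for Lefty2 (139 ± 6.68 CPM), Gsc and Eomes.

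**Figure D4:**
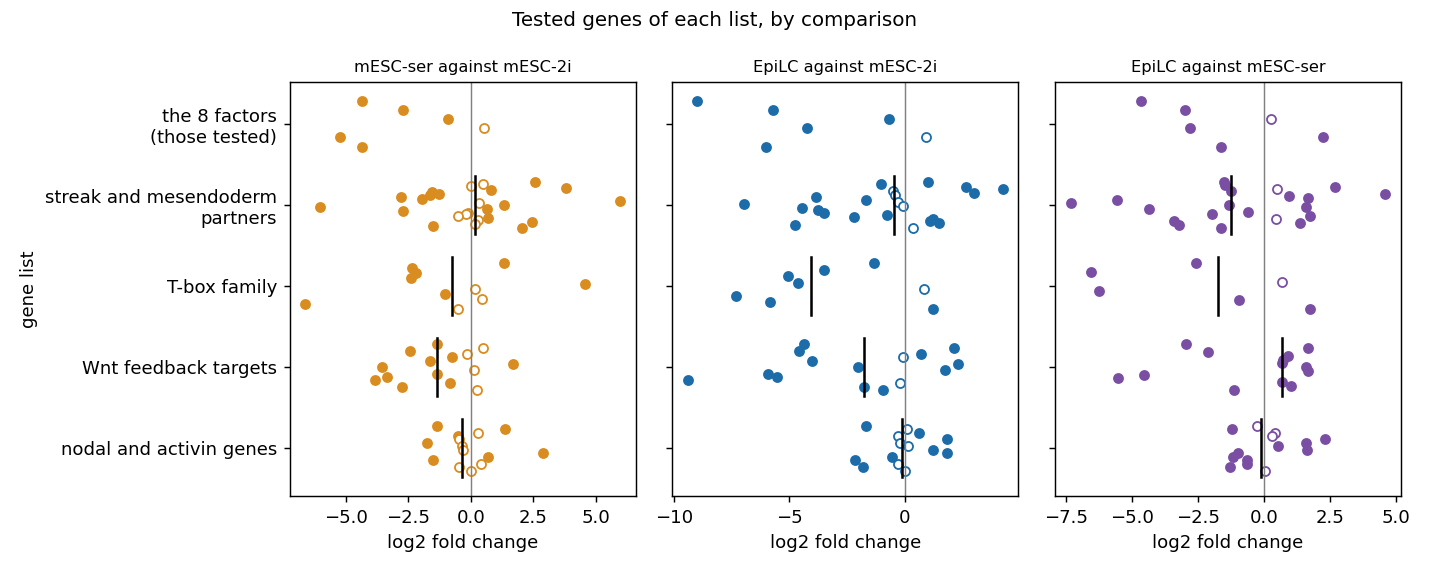
Log2 fold changes of the tested genes of 5 lists in each comparison of states, filled where called and open where not, with a black line at the median of a list. No median is drawn for the 8 factors, and genes at the counting floor are shown at their fitted value. The Wnt list leans to the left in both comparisons with mESC-2i, and the streak partners spread to both sides.

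Across the 9 libraries the genes most like each factor were named by Pearson's r of log2 CPM over 13626 genes, as a description only, since the libraries fall into 3 states and r follows the state means. T was most like Bhmt2 (r = 0.999), Elf3 (0.997) and Exph5 (0.997), and 730 genes had an r over 0.95 with it. For Cdx1 they were Slc30a2 (0.998), Gjb5 (0.998) and Bcat1 (0.997), with 736 genes over 0.95, and for Cdx2 Akt2 (0.997), Map2k5 (0.997) and Itpkc (0.996), with 512. Gsc was most like Hsd17b2 (0.996), Atp6ap1 (0.996) and Nnat (0.995), with 441 genes, and Eomes like Apobec2 (0.990), Pld3 (0.986) and Slc22a18 (0.986), with 168. Mixl1 (Pemt 0.974, Mtfmt 0.940 and H2-T10 0.930) and Evx1 (Hgs 0.960, Kansl3 0.958 and Adcy9 0.954) had 1 and 6 genes over 0.95, at low counts of their own. The pattern of T, Cdx1 and Cdx2 over the states was therefore shared by many genes.

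Library totals ranged from 7187576 to 16829549 counts, where 3 counts correspond to 0.172 to 0.403 CPM. Replicates of a state were compared in pairs by a chi-square per degree of freedom, larger where counts differ more. It was 4.08 between mESC-2i replicates 1 and 2, and 13.6 and 30.5 between these and replicate 3. In mESC-ser it was 1.66 between replicates 1 and 2, and 11.8 and 12.0 with replicate 3. In EpiLC it ran from 2.29 to 4.86. The labelled states were checked by marker lists. The summed CPM of 12 naive markers ran from 3712 to 3743 in mESC-2i, from 2141 to 2232 in mESC-ser and from 124 to 137 in EpiLC, and that of 13 formative and primed markers from 265 to 292, 1473 to 1658 and 2738 to 2831. Nanog, a naive marker that also restrains lineage genes, was at 650 ± 58.3, 287 ± 26.3 and 61.3 ± 3.91 CPM.

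Markers of other cell types also differed between the states in which the 8 factors differed. Counts of calls are given in the order mESC-ser against mESC-2i, EpiLC against mESC-2i and EpiLC against mESC-ser. Of 10 definitive endoderm markers, 2 were called higher and 5 lower of 9 tested, 0 higher and 6 lower of 7, and 1 higher and 3 lower of 6. Most of their summed level came from Trh, at 293 to 437 CPM in mESC-2i, 88.1 to 116 in mESC-ser and 159 to 176 in EpiLC, and the other 9 summed to 33.4 to 37.2, 21.7 to 24.3 and 6.83 to 9.42 CPM. Of 14 primitive endoderm markers, 8 were higher and 2 lower of 13 tested, 3 higher and 7 lower of 11, and 0 higher and 11 lower of 13, and their sums were 646 to 666, 934 to 1044 and 340 to 353 CPM. Most of these sums came from Sparc, Lama1, Lamb1, Col4a1, Col4a2 and Lrp2, and Lrp2 alone was at 257 to 315 CPM in mESC-ser. Gata4, Gata6, Sox7, Sox17 and Foxq1 were each at 5.09 CPM or lower in every library.

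Trophoblast markers, of interest for Cdx2 and Eomes, numbered 17 in the table, with 5 higher and 5 lower of 14 tested, 2 higher and 8 lower of 13, and 2 higher and 10 lower of 14. Their sum, 194 to 217 CPM in mESC-2i, 297 to 323 in mESC-ser and 100 to 106 in EpiLC, was dominated in mESC-ser by the keratins Krt8, Krt18 and Krt19, which other epithelial cells also express. Without these 3, left out after the values were seen, it was 144 to 158, 83.4 to 91.0 and 25.1 to 28.4 CPM. The state with the highest sum thus depended on the keratins, and the list gives no single order of states to set beside Cdx2 and Eomes. Tfap2c was at 65.5 ± 4.63, 34.9 ± 3.18 and 1.12 ± 0.742 CPM, Tead4 at 32.5 ± 3.03, 18.1 ± 0.700 and 2.26 ± 0.683, and Tfap2a at 16.9 ± 3.26, 5.19 ± 0.117 and 1.08 ± 0.252. Gata3 was highest in mESC-ser, with 11, 14 and 18 counts in mESC-2i, 77, 61 and 92 in mESC-ser, against 0, 0 and 2 in EpiLC. Elf5 had at most 3 counts in any library and was at 0 in EpiLC.

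Of 12 neural markers, 3 were higher and 6 lower of 11 tested, 1 higher and 9 lower of 11, and 1 higher and 4 lower of 5, with sums of 222 to 248, 198 to 214 and 124 to 128 CPM. Tubb3 and Nes made up most of these sums in mESC-2i and mESC-ser, and Sox3 was at 56.4 to 62.8 CPM in EpiLC. Of 12 fibroblast markers, 2 were higher and 4 lower of 8 tested, 3 higher and 6 lower of 9, and 2 higher and 7 lower of 9. Fn1 and Vim, which stem cells express too, made up most of their sum, and the other 10 summed to 56.7 to 60.0, 114 to 129 and 48.2 to 52.2 CPM. All 12 naive markers were tested, with 3 higher and 8 lower, 0 higher and 11 lower, and 0 higher and 12 lower, and all 13 formative markers, with 11 higher and 0 lower, 11 higher and 1 lower, and 7 higher and 2 lower. The definitive endoderm, trophoblast and fibroblast lists were split by their most abundant genes after the values were seen. The other lists were not split. The abundant genes given for the primitive endoderm and neural lists were also named after the values were seen. The part of these cell types in the values of the 8 factors was not tested.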

How the data were processed

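RNA was poly-A enriched and sequenced as single-end reads with a kit that does not mark strand. Per the labels the authors used Trim Galore 0.6.6, HISAT2 2.2.1 and Subread 2.0.1 on mm10. The deposited values are raw counts per Ensembl gene, and annotation release, strand setting and treatment of multi-mapping reads were not given in the sources used here. Columns were matched to samples by name, with SL read as serum LIF. Symbols, positions and exonic lengths came from GENCODE M21 (95.1% of identifiers matched).

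Pairs of states were fitted separately, on 6 libraries each, in edgeR 4.0.16 (limma 3.58.1, R 4.3.3) using filterByExpr, TMM and the quasi-likelihood F-test. SE were taken from the F statistic. CPM and RPKM used TMM over 9 libraries, and log2 CPM a prior count of 2. The steps were tested on simulated counts with 200 changed genes. Of these 97% to 97.5% were recovered, and 2.5% to 3.96% of calls were false. The simulation gave all genes the same spread between replicates and changed no gene of low count. It therefore does not cover the factors with few reads. Between mESC-ser and mESC-2i same-numbered libraries correlated at 0.129 to 0.345 in their deviations from group means. Libraries with different numbers correlated at -0.278 to 0.146, a range that overlaps, so a pairing by number was not settled. In EpiLC against mESC-2i same-numbered libraries correlated at 0.0195 to 0.112, and the others at -0.114 to 0.0105. In EpiLC against mESC-ser the ranges were 0.0165 to 0.0335 and -0.0308 to 0.0159. In these comparisons every same-numbered pair lay above all others, although the correlations were low, and the study gives no block. The reported fits hold no pairing, and a replicate block was run as an alternative. Named genes were the 8 factors, fixed single genes, and the 3 largest called changes per list among genes averaging 50 or more counts in the higher state, from which examples are given. Some genes stand in more than 1 list. Members and lists were chosen with earlier results of these data known. Alternatives were scaling by RLE, upper quartile or total counts, other filters, thresholds and fits, DESeq2 1.42.0, the edgeR exact test, a length and GC correction, a replicate block and leaving out each library.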

Additional observations from a re-analysis of the deposited data

How the results depend on the processing

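T, Cdx1 and Cdx2 kept their direction and their call in all 3 comparisons in every alternative that tested them, and Gsc did so in both comparisons with mESC-2i. Gsc in EpiLC against mESC-ser was tested in 2 alternatives, without the filter (0.92, edgeR adjusted p = 0.243) and with all libraries in one fit (0.93, edgeR adjusted p = 0.160), and called in 0. With the replicate block mESC-ser against mESC-2i gave 8953 called genes. Of the 8 factors it called 5, 5 and 5 in the 3 comparisons, so the block changed no call of theirs. A log2 fold threshold of 1 called 4935 genes in mESC-ser against mESC-2i (2222 higher, 2713 lower) and left out Eomes. With at least 10 counts in every library, fewer genes were tested, and the factors called numbered 2 (2 lower) in EpiLC against mESC-2i and 1 (0 higher, 1 lower) in EpiLC against mESC-ser. Mixl1 was the 1 factor called higher in EpiLC against mESC-2i with RLE scaling (1.01), no filter (0.93), the edgeR exact test (0.96) and the length and GC correction (1.04). With that correction the median of all genes in EpiLC against mESC-2i moved from -0.11 to 0.18, more than Mixl1 moved from 0.94. Leaving out single libraries gave 0 to 1 factors called higher there, Mixl1 without EpiLC replicate 3 (1.18) or mESC-2i replicate 2 (1.24), and 0 to 1 in mESC-ser against mESC-2i, Evx1 without mESC-2i replicate 3. The cause was not tested.

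Total-count scaling turned Eomes in EpiLC against mESC-ser to -0.088 (edgeR adjusted p = 0.577), with the median of all genes at -0.41, and lowered the share of calls that were higher from 45.9% to 33.7% in EpiLC against mESC-2i and from 48.4% to 37.4% in EpiLC against mESC-ser. Mixl1 in mESC-ser against mESC-2i was tested in 6 alternatives and called lower in 4 (-0.89 to -1.60 over the 6), and Evx1 in EpiLC against mESC-2i was called lower in the 2 that tested it (-2.31 in both). Depth limits Mixl1, Evx1 and Mesp1 in all states, and Cdx1, Cdx2 and Gsc where they are low.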
